A study of Mus musculus with 5 samples.

Results

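The chondroitin sulfate proteoglycan and tenascin genes were followed in cultured neural stem and precursor cells of the adult mouse subventricular zone (SVZ), the layer beside the lateral ventricle that keeps neural stem cells into adult life. A total of 10 genes were chosen by name from the 46078 genes of the per-library tables: the lecticans neurocan (Ncan), brevican (Bcan), versican (Vcan) and aggrecan (Acan), the membrane proteoglycans Cspg4, Cspg5 and Ptprz1, the tenascins Tnc and Tnr, and the link protein gene Hapln1. Each had a single row in every table. The cells came from C57BL/6 mice with no mutation, which the labels give as female and 5 to 8 weeks old, while the study's methods give an older range for its SVZ cells. They were grown on poly-D-lysine with epidermal and fibroblast growth factors and received phosphate-buffered saline (PBS) as a sham exposure. RNA was taken 1 h later in 2 libraries (1 h sham, replicates 1 and 2) and 8 h later in 3 libraries (8 h sham, replicates 13, 14 and 15). All groups thus shared strain, genotype and PBS, and they differed by label only in time. No library of cells given hydrogen peroxide was among those available here.

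In brain, lecticans are secreted core proteins that carry chondroitin sulfate chains and bind hyaluronan at one end and tenascin-R at the other. Link proteins of the Hapln family lock the lectican to hyaluronan, and the resulting mesh surrounds mature neurons as perineuronal nets. In the adult SVZ, tenascin-C and chondroitin sulfate proteoglycans are part of the matrix around the stem cells, and Ptprz1 gives both a receptor tyrosine phosphatase and a secreted proteoglycan, phosphacan. Cspg4 encodes NG2, the surface proteoglycan by which oligodendrocyte progenitors are recognised, and Cspg5 encodes neuroglycan C.

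The libraries fell apart in a way that the labels do not explain. Library identifiers formed 2 number series, with both 1 h libraries and 8 h replicate 14 in series 1 and 8 h replicates 13 and 15 in series 2. No source used here says what the numbers mean. Mitochondrial genes held 10.7% to 11.1% of transcripts in series 1 and 6.23% and 6.30% in series 2. In series 1, 4 Y-linked genes (Ddx3y, Uty, Kdm5d and Eif2s3y) together reached 137.6 to 180.9 TPM (transcripts per length, scaled to the same total in each library), against the female label, with Xist at or below 0.0611 TPM. In series 2 their sum was at most 0.0253 TPM and Xist was at 165.3 and 199.7 TPM. With each TPM table taken by its label, series, this sex-gene pattern and mitochondrial share cannot be told apart. All 6 neural stem and precursor markers and all 4 oligodendrocyte progenitor markers were at or above 1 TPM on average, as were all 4 astrocyte markers. Of the markers of microglia (4 genes) and of pericytes and fibroblasts (6 genes), 0 reached a mean of 1 TPM, though P2ry12 was at 1.41 and 1.29 TPM in the 1 h libraries and Col1a1 at 1.03 TPM in 8 h replicate 15. Of 4 ependymal markers only Foxj1 did so, at 14.4 to 26.7 TPM, though Rsph1 was at 1.22 and 1.68 TPM in 8 h replicates 13 and 15. Among 4 endothelial markers only Flt1 did so, at 9.71 to 13.6 TPM, with Cldn5 and Cdh5 listed at 0.

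The levels of the 10 genes ran from among the highest in the cells to near 0, and their order was nearly the same in every library. Ptprz1, Tnc, Ncan and Bcan stood at the 99.3, 98.5, 98.1 and 95.5 percentile of mean TPM among the genes with a mean of at least 1 TPM, Cspg5 at the 87.9, and Vcan, Cspg4 and Tnr at the 73.5, 59.8 and 57.0. TPM, being per length, was used for levels between genes. By TPM, Ptprz1 was the highest, followed by Tnc, Ncan, Bcan, Cspg5, Vcan, Cspg4 and Tnr, all above 15 TPM in each of the 5 libraries. The deposited coverage per base gave another order, with a mean of 1546 for Tnc and 1366 for Ptprz1. Its means were 85.7 for Cspg4, 73.9 for Vcan and 8.70 for Tnr. Ptprz1 was not among the deposited counts, so its rank could not be checked there. Acan stayed below 0.41 TPM and Hapln1 below 0.08 TPM. The 10 genes summed to between 2547 and 2893 TPM per library, of which Ptprz1, Tnc and Ncan together held 81.4% to 84.6%. In bulk RNA, fewer cells of a type and less RNA per cell cannot be told apart. Ranges over the 5 libraries overlapped for 3 neighbours in the order by TPM. Tnc was above Ncan in 4 of 5 libraries, Cspg4 was above Tnr in 3 of 5, and Vcan was above Cspg4 in all 5 although their ranges crossed. All other neighbours had ranges that lay apart.

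**Figure D1:**
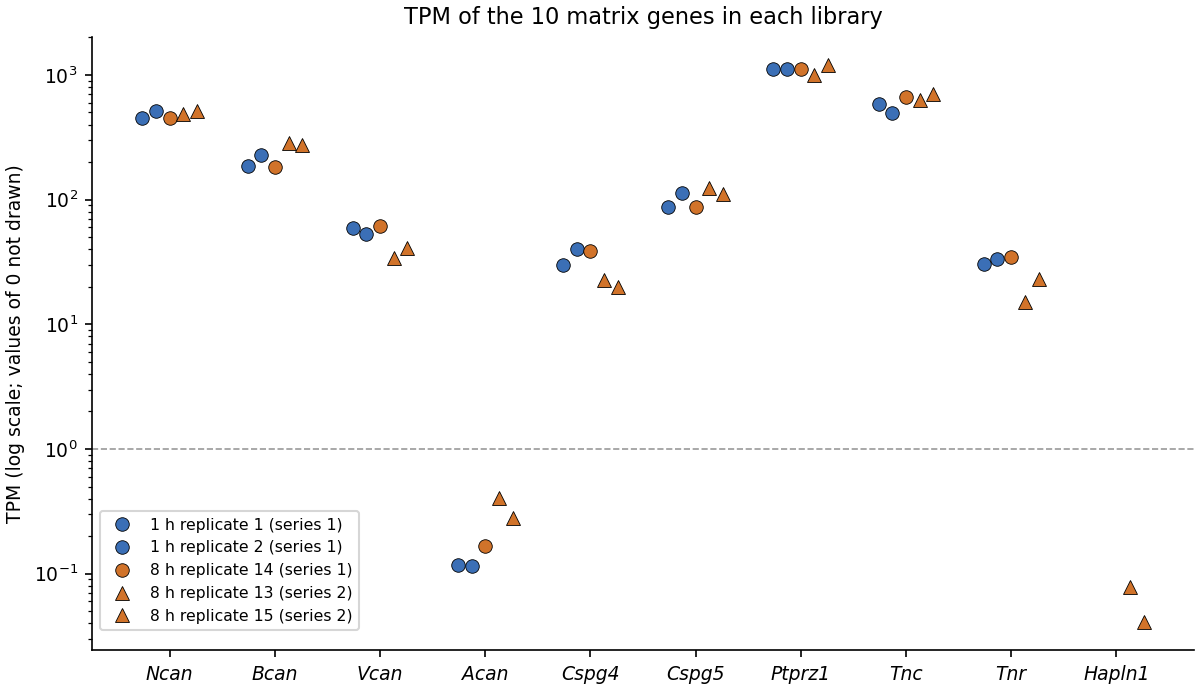
TPM of each of the 10 genes (log axis) in the 5 libraries; colour gives the time, circles identifier series 1 and triangles identifier series 2, and the dashed line marks 1 TPM. A total of 8 genes lie above 15 TPM in every library, Acan lies below 0.41 TPM, and Hapln1 is drawn only for 8 h replicates 13 and 15 because it is listed at 0 in the other 3 libraries.

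Ncan, the lectican of developing and adult neural tissue, was the most abundant of its family. The gene spans 70093085 to 70120873 on chromosome 8 (GRCm38, minus strand) with 15 exons in its longest coding transcript. Its TPM was 453.1 and 509.7 in the 1 h replicates 1 and 2, and 448.2, 483.8 and 510.2 in the 8 h replicates 14, 13 and 15. The groups overlapped fully, at 481.4 ± 40.0 (SD, n = 2) at 1 h and 480.7 ± 31.2 (SD, n = 3) at 8 h. The highest library was only 1.14 times the lowest, the narrowest spread of the 8 genes with a mean of at least 1 TPM.

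Bcan, a lectican made by astrocytes and oligodendrocyte progenitors, came next. It is a compact gene of 12.7 kb on chromosome 3 (87987531 to 88000230, minus strand). It stood at 187.7 and 226.4 TPM at 1 h and at 183.8, 287.2 and 276.8 TPM in 8 h replicates 14, 13 and 15. The 8 h replicates 13 and 15 were the highest libraries, while 8 h replicate 14 was the lowest of all 5. The ratio of Ncan to Bcan was accordingly 2.25 to 2.44 in series 1 and 1.68 and 1.84 in series 2.

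Vcan, the lectican with the widest tissue distribution, ran the other way. Its TPM was 59.2 and 53.3 at 1 h, 61.7 in 8 h replicate 14, and 34.3 and 40.6 in 8 h replicates 13 and 15. The 8 h library of series 1 was thus the highest of the 5 and the series 2 libraries were the lowest. As a share of lectican TPM, Vcan took 6.75% to 8.89% in series 1 and 4.26% and 4.91% in series 2.

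Acan, the large cartilage proteoglycan that is also the core of perineuronal nets, was close to absent. The gene lies at 79053483 to 79115099 on chromosome 7. It was listed at 0.117 and 0.116 TPM at 1 h and at 0.166, 0.407 and 0.279 TPM in 8 h replicates 14, 13 and 15. All 8 h libraries lay above both 1 h libraries, but at a mean of 0.217 TPM the gene was below the minimum of 1 TPM for testing. How many genes at such low levels share this pattern was not computed, so nothing is read from it. Acan took at most 0.0505% of lectican TPM.

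Promoter sequence was read for the lectican with moderate and the one with near-zero expression, and likewise for the high and the lower tenascin, to show the start regions of genes whose levels stood far apart. RefSeq starts on GRCm38.p6 were found for 9 of the 10 genes. The 250 bases before the start are given 5′ to 3′ on the strand of the gene, and none overlapped an exon of the GENCODE vM21 annotation. Capitals mark matches on either strand to any of 5 motifs. The TATA box was searched as TATAAA and the GC box as GGGCGG. The box named CCAAT was searched by those letters, the E-box by CAGCTG, and a SOX-like motif by AACAAT. Neighbouring capitals in Acan are overlapping GC boxes. Vcan lay at chr13:89742513-89742762 (minus strand), Acan at chr7:79052976-79053225 (plus), Tnc at chr4:64047016-64047265 (minus, the more distal of its start sites listed) and Tnr at chr1:159523519-159523768 (plus).
Vcan: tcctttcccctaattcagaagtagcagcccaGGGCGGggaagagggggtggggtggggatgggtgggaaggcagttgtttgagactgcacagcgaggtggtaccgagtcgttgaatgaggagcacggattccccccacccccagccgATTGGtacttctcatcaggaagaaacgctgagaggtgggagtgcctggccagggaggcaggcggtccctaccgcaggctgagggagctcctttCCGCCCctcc
Acan: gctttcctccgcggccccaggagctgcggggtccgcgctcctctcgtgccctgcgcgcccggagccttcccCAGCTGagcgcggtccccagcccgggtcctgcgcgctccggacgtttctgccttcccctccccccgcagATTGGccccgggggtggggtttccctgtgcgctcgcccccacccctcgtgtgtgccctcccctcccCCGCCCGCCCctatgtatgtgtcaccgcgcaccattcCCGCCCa
Tnc: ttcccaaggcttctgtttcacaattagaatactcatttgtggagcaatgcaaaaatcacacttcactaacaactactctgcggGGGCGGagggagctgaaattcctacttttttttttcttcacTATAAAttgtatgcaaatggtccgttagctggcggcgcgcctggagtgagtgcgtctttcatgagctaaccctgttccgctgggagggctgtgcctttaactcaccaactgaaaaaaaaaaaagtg
Tnr: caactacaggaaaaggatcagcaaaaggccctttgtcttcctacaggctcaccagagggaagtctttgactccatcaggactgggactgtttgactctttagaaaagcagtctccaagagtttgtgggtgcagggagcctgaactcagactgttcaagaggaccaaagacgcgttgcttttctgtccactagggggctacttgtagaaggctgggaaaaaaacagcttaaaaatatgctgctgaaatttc

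The near-silent Acan had the most CpG-rich window of the 9 genes, with 26 CpG dinucleotides and a GC content of 74.4%, and 9.59% of all 32851 windows of this length held as many or more. It held 3 GC boxes on the opposite strand, 1 CCAAT box and 1 E-box. Vcan had 10 CpG and Tnc had 8, with a TATA box 126 to 121 bases before the Tnc start. The Tnr window held 2 CpG and 0 matches to these motifs. GC boxes occurred in 7 of the 9 windows and in 32.7% of all windows, CCAAT boxes in 3 and 33.8%, TATA boxes in 2 and 12.4%, E-boxes in 2 and 13.0%, and AACAAT in 0 and 9.42%. These are matches of letters and were not tested as sites.

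Each lectican gene has a link protein gene as its neighbour in the genome, and in these cells the pairs were far from equal. No annotated gene lay between the partners of any of the 4 pairs. Hapln1, the link protein of cartilage and of perineuronal nets, lies 43479 bp from Vcan on chromosome 13 (Hapln1 at 89540636 to 89611832, Vcan at 89655312 to 89742509). It was listed at 0 in both 1 h libraries and in 8 h replicate 14, and at 0.0775 and 0.0407 TPM in 8 h replicates 13 and 15, against 49.8 TPM for Vcan on average. Hapln2 lies 21519 bp from Bcan on chromosome 3 and averaged 0.0673 TPM. Hapln4, 2222 bp from Ncan on chromosome 8, was the most abundant of the family with 1.36 and 2.28 TPM at 1 h, 1.76 TPM in 8 h replicate 14, and 4.58 and 5.16 TPM in the libraries of series 2. Hapln3, 1927 bp from Acan on chromosome 7, was at 0.434 to 0.791 TPM in series 1 and at 2.08 and 1.41 TPM in series 2. Ncan thus exceeded Hapln4 159-fold in mean TPM, whereas Acan was the only lectican below its neighbour.

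**Figure D2:**
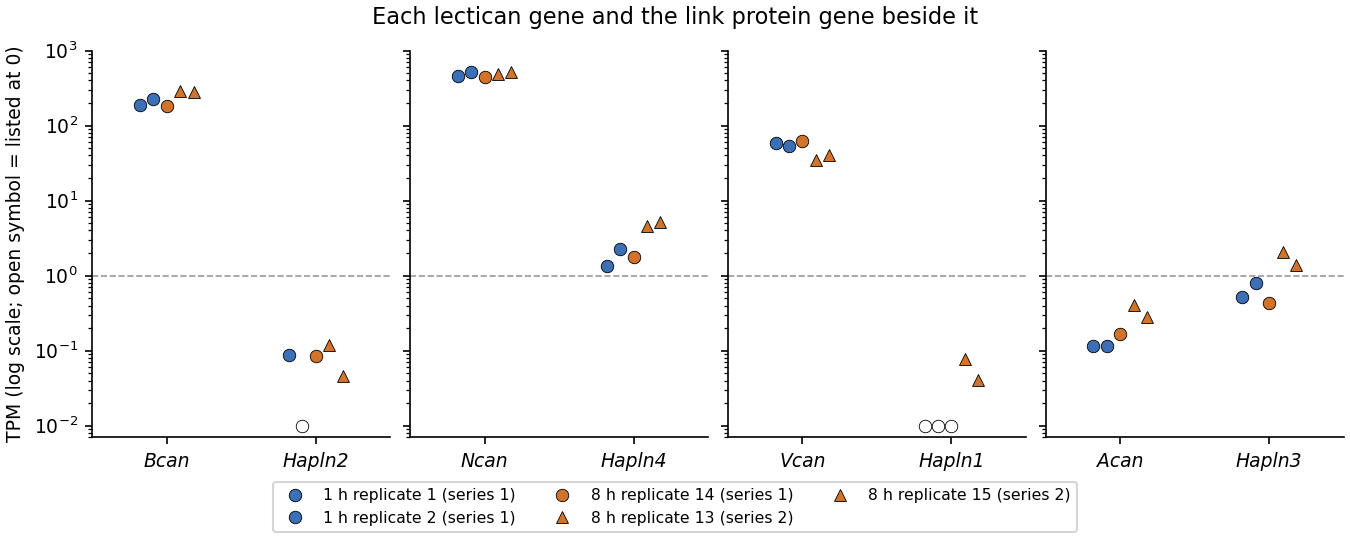
TPM (log axis) of each lectican gene and the link protein gene next to it in the 5 libraries, with symbols as for the plot of all 10 genes and open symbols drawn at the axis bottom for values listed at 0. Ncan, Bcan and Vcan lie above 34 TPM in every library while their neighbours stay below 5.2 TPM.

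Among the membrane proteoglycans, Ptprz1 varied little between libraries, by 1.21-fold from lowest to highest, and Cspg4 by 2.01-fold. Ptprz1 was at 1117 and 1123 TPM at 1 h and at 1113, 1001 and 1210 TPM in 8 h replicates 14, 13 and 15. The 3 series 1 libraries differed by little and the series 2 libraries lay on either side of them. The gene spans 22875502 to 23052916 on chromosome 6 with 30 exons in its longest coding transcript.

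Cspg5 (chromosome 9, 110243783 to 110262576) and Cspg4 (chromosome 9, 56865104 to 56899870) lie on the same chromosome. Cspg5 was at 87.5 and 112.9 TPM at 1 h and at 87.5, 123.3 and 110.5 TPM at 8 h in the same order, with overlapping groups. Cspg4 was at 29.7 and 39.9 TPM at 1 h, at 39.0 TPM in 8 h replicate 14 and, in replicates 13 and 15, at 22.6 and 19.8 TPM, so that both series 2 libraries were below the other 3. The ratio of Cspg5 to Cspg4 was 2.24 to 2.95 in series 1 and 5.45 and 5.58 in series 2. The summed TPM of the oligodendrocyte progenitor markers Pdgfra, Olig1, Olig2 and Sox10 was 1492 to 2128 TPM in series 1 and 2090 and 2380 TPM in series 2, and Olig1 and Olig2 made up most of it. Of the other members, Pdgfra was at 49.7 to 55.8 TPM in series 1 and 49.0 and 55.5 TPM in series 2, and Sox10 at 19.2 to 28.4 TPM and at 18.1 and 19.8 TPM. The part of these cells in the Cspg4 values was not tested.

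Tnc, the hexameric tenascin of germinal zones and wounds, was the only one of the 8 genes above 1 TPM whose 8 h libraries all lay above both 1 h libraries. The gene lies at 63959785 to 64047015 on chromosome 4 with 26 exons in its longest coding transcript. Its TPM was 581.8 and 496.7 at 1 h and 666.7, 625.1 and 701.0 in 8 h replicates 14, 13 and 15, or 539.2 ± 60.2 (SD, n = 2) against 664.3 ± 38.0 (SD, n = 3). Of 13870 genes with a mean of at least 1 TPM, 23.7% had all 8 h libraries above both 1 h libraries and 9.43% had all below, so the pattern was a common one. Of the 8 matrix genes above this minimum, 1 lay above and 0 lay below.

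Tnr, the tenascin of oligodendrocytes and perineuronal nets, varied most. At 408.0 kb it is the longest gene of the set (chromosome 1, 159523769 to 159931729). It was at 30.7 and 33.2 TPM at 1 h, 34.9 TPM in 8 h replicate 14, and 15.2 and 23.0 TPM in the series 2 libraries, replicates 13 and 15. The highest library was 2.30 times the lowest, and the SD of log2(TPM + 1) over the 5 libraries was 0.48, the largest of the 8 genes. The ratio of Tnc to Tnr was 14.9 to 19.1 in series 1 and 41.2 and 30.5 in series 2. Among 9478 other genes with a mean of at least 10 TPM, those most like Tnr in their centred log2(TPM + 1) values were Birc6, Ets1, Esd, Lnx1 and Eapp, with root mean square differences of 0.0517, 0.0675, 0.0705, 0.0729 and 0.0790 over the 5 libraries. Birc6, for example, was at 49.6 to 56.1 TPM in series 1 and at 27.3 and 37.5 TPM in series 2.

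The labels contrast 8 h with 1 h after PBS. By limma on log2(TPM + 1), 0 of the 8 matrix genes passed both thresholds, an adjusted p of 0.05 or less and a log2 fold change beyond 1 in either direction. Over all genes 6 of 13870 passed them (0.0433%). Without regard to adjustment, 1 of the 8 (Tnc, higher) had a p under 0.05, against 9.52% of all genes for higher and 2.82% for lower values. These p-values measure the spread between these libraries, and the labels do not say that each came from another animal, although the study's methods count an animal as the SVZ replicate.

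For Tnc the log2 fold change was 0.30 ± 0.11 (SE), with a 95% interval of 0.03 to 0.58 and a limma adjusted p of 0.386, beside a median of 0.10 over all genes. Among the libraries of series 1 alone, which hold a single 8 h library, the estimate was 0.31 (-0.04 to 0.66, limma adjusted p = 0.665). The interval took in 0 under median-ratio scaling (-0.10 to 0.49), without mitochondrial genes (-0.03 to 0.53), with a term for the series (-0.02 to 0.64), without 1 h replicate 2 (-0.19 to 0.57) and without 8 h replicate 15 (-0.06 to 0.59). Ncan was at -0.00 (95% interval -0.26 to 0.26, limma adjusted p = 0.996) and Ptprz1 at -0.02 (-0.30 to 0.26, limma adjusted p = 0.939). As linear folds these intervals run from 0.833 to 1.20 for Ncan and from 0.811 to 1.20 for Ptprz1. Cspg5 was at 0.09 (-0.36 to 0.54, limma adjusted p = 0.814).

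The intervals were wider for the genes that divided by identifier series. Bcan had a log2 fold change of 0.24 (-0.29 to 0.78, limma adjusted p = 0.596), Vcan of -0.34 (-0.94 to 0.26, limma adjusted p = 0.533), Cspg4 of -0.39 (-1.13 to 0.35, limma adjusted p = 0.553) and Tnr of -0.46 (-1.24 to 0.33, limma adjusted p = 0.524). A term for the identifier series turned the sign of each of these 4 estimates, at -0.16 for Bcan, 0.13 for Vcan, 0.18 for Cspg4 and 0.12 for Tnr. With that term the time estimate rests on a single 8 h library, replicate 14, against the 1 h libraries. Without 8 h replicate 14, time and series coincide. All 4 then passed an adjusted p of at most 0.05 in limma, and none of the 4 reached a log2 change of 1. Bcan was at 0.45 (limma adjusted p = 0.0407) and Vcan at -0.58 (limma adjusted p = 0.0269). Cspg4 was at -0.68 (limma adjusted p = 0.0391) and Tnr at -0.74 (limma adjusted p = 0.0482). These 4 were named for dividing by series, the split that this fit contrasts, so their passing is no separate support. Of the 8 tested genes 4 passed, beside 19.9% of all genes, and Tnc, Cspg5, Ncan and Ptprz1 did not. Other omissions moved the estimates either way. Without 8 h replicate 13 they were 0.13 for Bcan, -0.16 for Vcan and -0.17 for Tnr. The smallest for Bcan was 0.11 without 1 h replicate 1, and for Cspg4 -0.18 without 1 h replicate 2. Larger estimates came without 1 h replicate 2 for Bcan (0.38) and Vcan (-0.42). Without 1 h replicate 1 they were larger for Cspg4 (-0.60) and Tnr (-0.51).

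**Figure D3:**
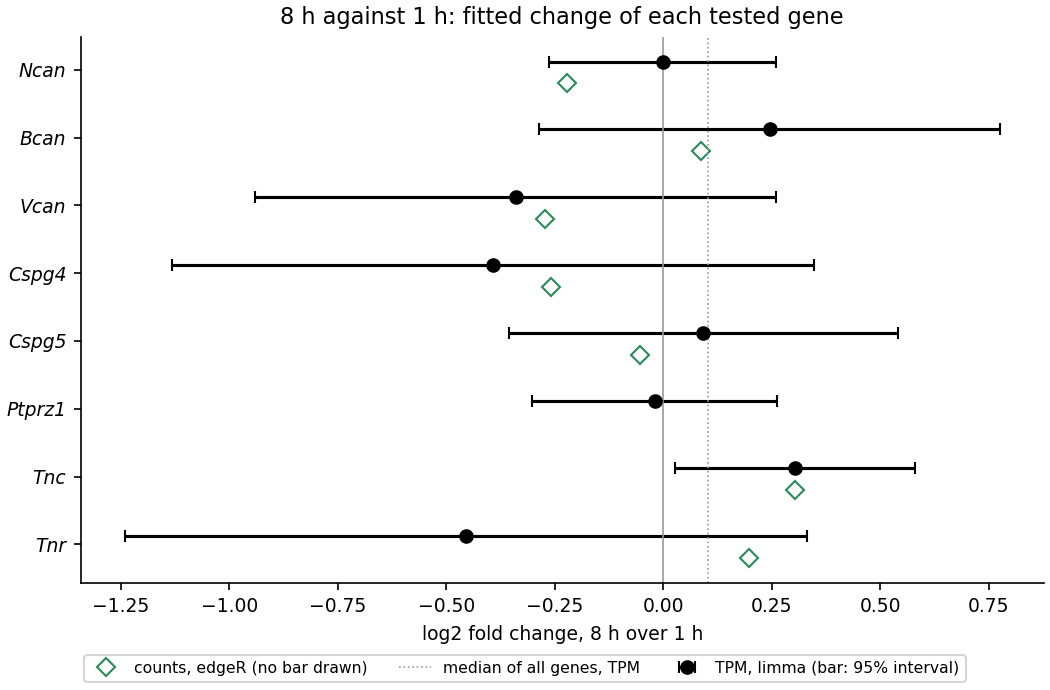
Fitted log2 fold change of 8 h over 1 h for the 8 tested genes, from TPM with limma (points with 95% intervals) and from the deposited counts with edgeR (open diamonds, for 7 genes), with the median of all genes in TPM dotted. In this fit the interval leaves out 0 only for Tnc (0.03 to 0.58), which takes in 0 under 6 alternatives, and no gene passed after adjustment.

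Values were then set out by identifier series. The 8 h replicates 13 and 15 lay above the other 3 libraries for 1 of the 8 genes (Bcan) and below them for 3 (Vcan, Cspg4 and Tnr), while 39.8% of all tested genes lay above and 13.5% below. In these 3 genes the mean of series 2 was 64.5%, 58.6% and 57.8% of that of series 1, and for Bcan it was 141.5%. The means of Ncan (105.7%), Ptprz1 (98.9%), Tnc (114.0%) and Cspg5 (121.8%) were nearer to 100%, with overlapping values. With time, series, mitochondrial share and the sex-gene pattern moving together in 2 of the 3 libraries at 8 h, these differences cannot be told apart from any of them. The series of a TPM table follows its label, and the count column labelled 8 h replicate 13 matched the TPM table labelled 8 h replicate 14 (values given with the counts), so each value by series depends on the labels of the TPM tables being right. Astrocyte markers (Gfap, Aqp4, Slc1a3 and Slc1a2) summed to 405.0 to 410.3 TPM in series 1 and to 686.1 and 795.8 TPM in series 2, and neuroblast and neuron markers to 43.9 to 50.1 TPM and to 27.0 and 28.7 TPM. In the latter list Tubb3 made most of the difference, at 37.4 to 42.9 TPM and at most 19.3 TPM. Stmn2, far below 1 TPM, was also lower, at 0.192 to 0.281 TPM and at 0.158 and 0.102 TPM. Dcx (4.59 to 6.43 TPM, and 5.74 and 7.85 TPM) and Rbfox3 overlapped between the series. Their part in the levels of Bcan, Vcan and Tnr was not tested.

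**Figure D4:**
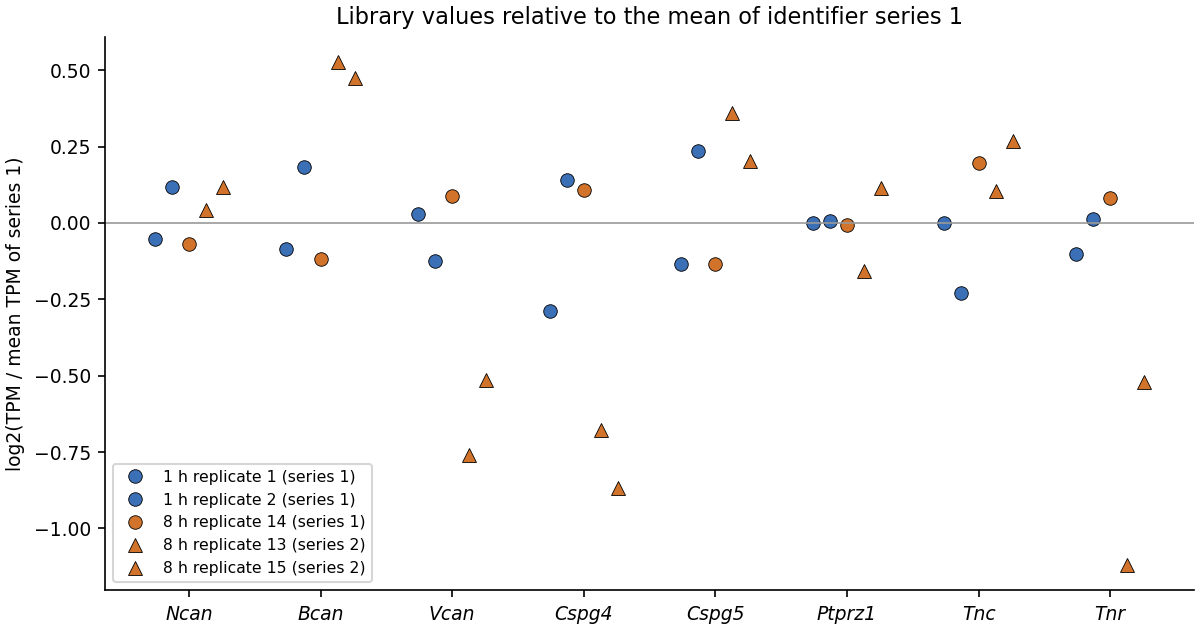
log2 ratio of each library's TPM to the mean TPM of the 3 series 1 libraries, for the 8 genes with a mean of at least 1 TPM; colour gives the time and shape the identifier series. For Vcan, Cspg4 and Tnr the 8 h library of series 1 (orange circle) lies with the 1 h libraries, and both triangles lie below them.

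The deposited counts covered 7 of the 10 genes, with Ptprz1, Acan and Hapln1 not in the count table used here. Each of the 7 had at least 1872 counts in every column, so counting error was small beside the spread between libraries. In the order of the levels, CPM (counts scaled to the column total) per kilobase of the longest coding transcript gave the same ranks for all 7. Cspg4 and Tnr stood close in it, at means of 22.5 and 21.5 CPM per kilobase. Their order rests on that choice of length. Merged exons measure 11931 bp for Cspg4 and 12867 bp for Tnr, beside 8121 and 12202 bp for those transcripts. The Tnr mean also takes in the column named 8 h replicate 14, which matched no TPM table. By edgeR, 0 of the 7 genes and 0 of all 7590 tested passed (0%). At an unadjusted p under 0.05, edgeR gave 0 of the 7 genes, against 199 of all genes (1.29% higher and 1.33% lower). DESeq2 gave 227 genes and limma-voom 178 at that level, both also with 0 calls. The edgeR log2 fold change was 0.30 for Tnc, 0.20 for Tnr, 0.09 for Bcan, -0.05 for Cspg5, -0.22 for Ncan, -0.26 for Cspg4 and -0.27 for Vcan, all with an edgeR adjusted p of at least 0.966. Vcan came to -0.0056 without the column named 8 h replicate 15, Cspg4 to -0.0055 without that of 1 h replicate 2 and Tnc to 0.17 without that of 8 h replicate 14.

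Tnr changed sign between the tables, and the count columns did not all match the TPM tables of the same name. After an offset for each gene taken from the 1 h libraries, 79.1% of 6860 genes in the column named 8 h replicate 13 agreed within 0.1 log2 with the TPM table of 8 h replicate 14, and 79.1% in the column named 8 h replicate 15 with that of 8 h replicate 13. For the column that carries the name 8 h replicate 14, the best match to any table was 41.3%. Tnr stood at 485.1 CPM in that unmatched column, against 236.4 and 239.1 CPM at 1 h and 250.1 and 100.8 CPM in the columns named 8 h replicates 13 and 15. Without it, the edgeR log2 fold change of Tnr was -0.45 (edgeR adjusted p = 0.803). Tnc was also highest there, at 4095 CPM against 2531 to 3340 CPM in the other 4 columns.

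The genes that build, modify or bind this matrix were read as 6 lists with 61 genes, of which 52 had a mean of at least 1 TPM. By limma, 0 of the 52 passed an adjusted p of at most 0.05, and 4 had an unadjusted p under 0.05. These were 2 higher and 2 lower genes, where 9.52% and 2.82% of all genes met that level. Adamts4, a protease that cuts lecticans, was at 31.7 and 36.4 TPM at 1 h and at 49.4, 54.7 and 56.7 TPM in 8 h replicates 14, 13 and 15, with a limma adjusted p of 0.262 and a log2 fold change of 0.64 ± 0.12 (SE). Cemip, a protein of hyaluronan breakdown, was at 4.12 to 5.11 TPM at 1 h and 6.11 to 7.06 TPM at 8 h (log2 fold change 0.46, limma adjusted p = 0.378). Chpf2, a chain polymerising factor, and Itga8, an integrin subunit for tenascin-C, had log2 fold changes of -0.32 (limma adjusted p = 0.397) and -0.54 (limma adjusted p = 0.373). In the count table, edgeR tested 39 of the list genes, 0 passed and 1 had an unadjusted p under 0.05, in the higher direction (1.29% of all genes).

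Each of the 12 chain synthesis genes of chondroitin sulfate had a mean of at least 1 TPM, led by Xylt1, which adds the first sugar to the core protein (99.0 to 136.6 TPM), Chsy1, a chain synthase (49.0 to 72.7 TPM), and B3gat3, which completes the linker (46.1 to 54.8 TPM). Their median log2 fold change was 0.15, beside 0.10 over all genes. Of the 10 sulfation and epimerase genes, 9 were above the minimum, with a median of 0.20, and Chst13 was listed at 0 in all 5 libraries. Chst11, the main 4-sulfotransferase of chondroitin, was the highest at 136.1, 144.5 and 142.8 TPM in series 1 and 251.0 and 259.2 TPM in series 2, followed by Chst7 and by Ust, a uronyl 2-sulfotransferase.

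Of the 9 hyaluronan genes 7 were above the minimum, with a median log2 fold change of 0.10. Cd44, the hyaluronan receptor, was at 128.1 to 155.0 TPM in series 1 and 89.5 and 116.1 TPM in series 2, and Hmmr, a hyaluronan-binding protein of dividing cells, was at 20.2 to 20.6 TPM and at 57.1 and 61.8 TPM. Hyal2, a hyaluronidase, ranged from 20.0 to 34.8 TPM. Of the 13 proteases and inhibitors 11 were above the minimum (median 0.20), led by Mmp14 at 102.3 to 198.4 TPM, Timp3 at 48.2 to 89.8 TPM and Adamts1 at 59.0 to 63.1 TPM. Ligands and receptors gave 11 of 12 (median 0.06). Ptn, the pleiotrophin that binds Ptprz1 through its chondroitin sulfate, was at 1263 to 1418 TPM, close to the level of Ptprz1 itself. Itgb1 was at 531.1 to 643.4 TPM and Ptprs, a receptor phosphatase for chondroitin sulfate, at 138.6 to 169.3 TPM. The link protein list held Hapln4 and Hapln3 as its only 2 genes above the minimum (median 0.56), while Tnn and Tnxb stayed below 0.13 TPM.

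Over the 6 lists, 8 h replicates 13 and 15 lay above the other 3 libraries for 32 of the 52 genes (61.5%) and below them for 7 (13.5%), against 39.8% and 13.5% of all tested genes. The members of the lists were chosen by textbook role, and this comparison is a description.

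**Figure D5:**
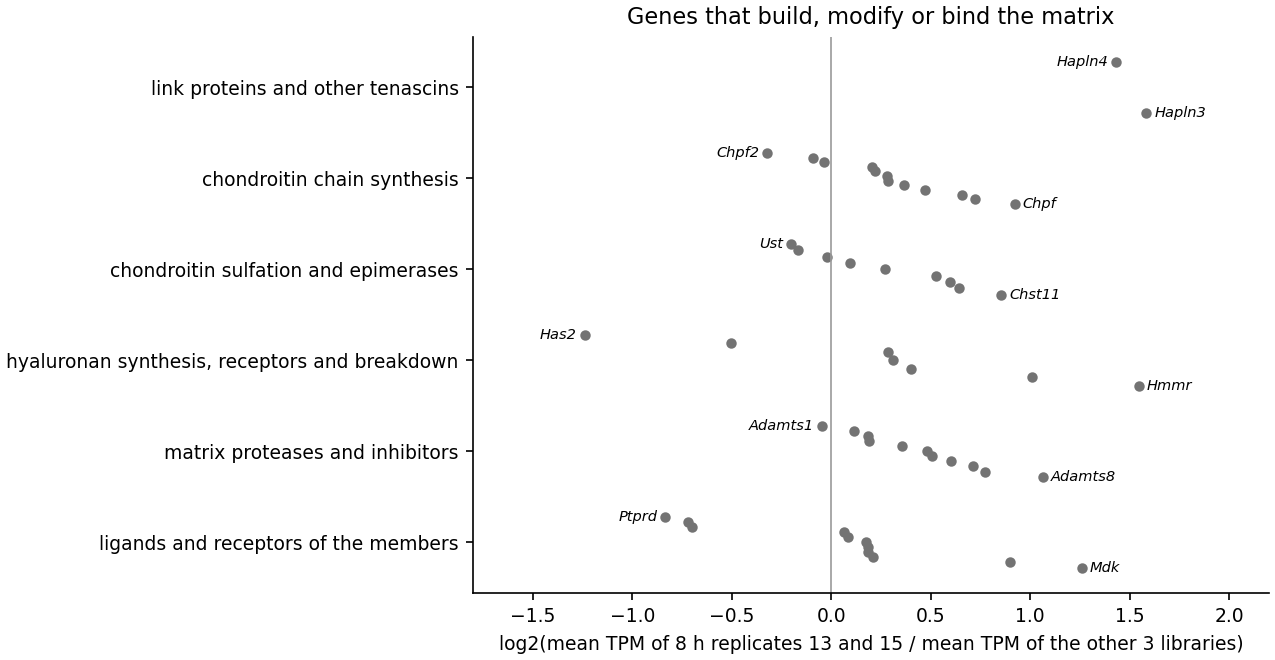
log2 ratio of the mean TPM of 8 h replicates 13 and 15 to that of the other 3 libraries for the 52 list genes with a mean of at least 1 TPM, 1 point per gene, with the lowest and highest gene of each list named. Points lie mainly to the right of 0, with Chst11 the rightmost of the sulfation genes.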

How the data were processed

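Stranded libraries of poly-A RNA were sequenced from both ends. The authors aligned reads to GRCm38 with STAR and counted them with featureCounts in nf-core/rnaseq, and their processing notes also name bcl2fastq 2.19.1.403, CASAVA and DESeq2. The deposited counts are whole reads per gene, not normalized, for 7599 genes, and the columns summed to 13988166 to 18572154. The authors also deposited, per library, coverage per base, FPKM (per kilobase and library size) and TPM for 46078 genes, laid out as by StringTie, whose use and version no source here states. TPM was added up per gene identifier. FPKM was also used for the shares of the 10 genes, which cannot differ from those by TPM. Coverage was read only beside the order of the levels, where it gave another order than TPM. The count table held 51.3% to 56.7% of a library's TPM, so its totals are not full depth.

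The main test was limma 3.58.1 on log2(TPM + 1) with an intensity trend, for the genes averaging 1 TPM or more, adjusted by Benjamini-Hochberg over all of them. This scale understates changes of low genes. Counts were tested with edgeR 4.0.16 (quasi-likelihood, TMM, filterByExpr), with DESeq2 1.42.0 and limma-voom as alternatives, in R 4.3.3. Calls needed an adjusted p of 0.05 or less and a log2 fold change beyond 1 in either direction. Both fits were tested on simulated data that held no split by series, so that test does not bear on the split seen here. Alternatives were a pseudocount of 0.1, no filter, other scalings, the identifier series as a term, series 1 alone and leaving out each library. Promoters came from RefSeq, and exon numbers and transcript lengths from GENCODE vM21. Gene positions and the gaps between neighbours were those deposited with the TPM values. These positions differ from GENCODE vM21 for Cspg4, Hapln1, Hapln3 and Hapln4. The genes and lists were chosen with earlier results of these data known. Named genes are the 10, the 3 most abundant of each list and list genes with an unadjusted p under 0.05. The text and figures name a few others, chosen after their values were seen: Chst13, Tnn, Tnxb, and the lowest and highest gene of each list in the plot by series.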

Additional observations from a re-analysis of the deposited data

How the results depend on the processing

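No paired analysis was possible because the groups share no replicate number. In TPM, 6 genes were called by limma over all genes, 0 without the filter on low values, 19 with the identifier series as a term, and between 0 and 568 when a library was left out: omitting 8 h replicate 14 gave 568, omitting 8 h replicate 13 gave 1, and omitting any other library gave 0. None of the matrix genes was called under any alternative run on TPM or counts, and 0 genes were called in the counts under every alternative run. Of 88 alternative estimates of the 8 genes in TPM, 72 kept the sign, but these are not 88 separate checks. Without the filter the estimates equal those of the main fit. The series term and series 1 alone give the same estimates as each other. With the series as a term, and in series 1 alone, the log2 fold change turned to -0.16 for Bcan, 0.13 for Vcan, 0.18 for Cspg4, -0.18 for Cspg5 and 0.12 for Tnr. Median-ratio scaling, which moved the median of all genes from 0.10 to 0.00, gave -0.015 for Cspg5. Leaving out a library gave -0.086 to 0.083 for Ncan, -0.090 to 0.27 for Cspg5 and -0.085 to 0.052 for Ptprz1, and kept the sign of Tnc (0.19 to 0.42), Bcan (0.11 to 0.45), Vcan (-0.58 to -0.16), Cspg4 (-0.68 to -0.18) and Tnr (-0.74 to -0.17). In the counts, 64 of 70 estimates kept the sign. The series term was fitted there on columns by their names, and the TPM tables do not bear out the series of those named 8 h replicates 13 and 14. Leaving out a column gave -0.057 to 0.24 for Bcan, -0.19 to 0.11 for Cspg5, -0.45 to 0.60 for Tnr, -0.48 to -0.0056 for Vcan, -0.51 to -0.0055 for Cspg4 and 0.17 to 0.43 for Tnc, and limma-voom gave -0.077 for Tnr. The cause of the other changes was not tested. FPKM gave the same shares of the 10 genes as TPM. This had to be so, because within a library the measures differ only by a constant factor. The check of ranks by counts per kilobase and the list counts without doubted libraries were chosen after seeing the data: without 8 h replicate 14, 16 of the 52 list genes passed an adjusted p of at most 0.05, beside 19.9% of all genes.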
